A study of Mus musculus with 2 samples.

Results

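The interferon-inducible GTPases described here are 10 mouse genes of the guanylate-binding protein (GBP), immunity-related GTPase (IRG) and Mx families. They are Gbp2, Gbp3, Gbp5, Gbp6, Igtp, Irgm1, Irgm2, Iigp1, Mx1 and Mx2, chosen by gene symbol, and each had 1 row in a deposited expression table of 26037 genes. One library was labelled MMP9_KO (MMP9 KO genotype, C57BL/6, RANKL treated) and the other was labelled control (same strain, same RANKL treatment), so n = 1 in each group. Both came from bone marrow of mice aged 6 to 8 weeks, expanded in 10% serum with M-CSF at 5 ng/ml. Non-adherent cells were then given M-CSF at 30 ng/ml for 3 days to make macrophages, and RANKL, the cytokine that drives osteoclast formation, for 3 days. Polyadenylated RNA was sequenced. Whether the gene was deleted or silenced, and how many mice were used, is not given; the column headings also carry the letters sh for MMP9_KO and NCsh for control.

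GBP, IRG and Mx proteins are large GTPases that defend cells from within. Interferon gamma, acting at GAS elements and through IRF1, strongly induces GBP and IRG genes, while type I interferon, acting at ISRE elements, induces Mx genes and many GBP and IRG genes. GBP and effector IRG proteins assemble on vacuoles that hold parasites or bacteria, regulatory IRGM proteins keep the effectors off the cell's own membranes, and Mx proteins block viral replication. In macrophages they are part of the activated state, and interferons are also known to restrain osteoclast formation.

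The promoters are shown first, because ISRE and GAS elements are the letters that interferon-activated factors are known to read. RefSeq windows (build GRCm38.p6, from 250 bases before to 50 after the start) matched 6 of the 10 members by symbol: Gbp2, Gbp3, Gbp5, Igtp, Irgm1 and Irgm2. Igtp is printed from chr11:58199456-58199555 and Irgm2 from chr11:58214877-58214976, both on the plus strand and ending at the base before the start. A 30-base stretch is printed for Irgm1 (chr11:48871428-48871457, minus strand), Gbp2 (chr3:142620594-142620623, plus strand), Gbp3 (chr3:142559992-142560021, plus strand) and Gbp5 (chr3:142496759-142496788, plus strand). GENCODE M21 has exons that start further upstream than RefSeq for some transcripts, so all 30 bases shown for Irgm1 and 22 of the 30 shown for Gbp2 lie within an annotated exon there. Capitals mark the ISRE core, which is GAAA, any 2 bases and GAAA again, or its reverse complement, and in Igtp and Irgm2 also the GAS letters TTCNNNGAA that stand before it.
Igtp: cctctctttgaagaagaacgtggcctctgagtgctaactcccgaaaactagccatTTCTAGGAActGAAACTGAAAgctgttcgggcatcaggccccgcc
Irgm2: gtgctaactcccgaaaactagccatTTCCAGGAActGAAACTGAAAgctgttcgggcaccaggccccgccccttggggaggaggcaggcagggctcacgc
Irgm1: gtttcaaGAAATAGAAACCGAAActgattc
Gbp2: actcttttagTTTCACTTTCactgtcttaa
Gbp3: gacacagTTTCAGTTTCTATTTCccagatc
Gbp5: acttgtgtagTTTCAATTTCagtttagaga

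All 6 members with a window held the ISRE core on one of the strands, against 3.44% of 32851 windows of the same length. In Irgm1 and Gbp3 a pair of ISRE matches overlapped. Gbp3 has another window, from a second start, without a match. GAS letters were found in 3 of the 6, Gbp5, Igtp and Irgm2, against 8.3% of all windows. Of 15 other interferon-inducible GTPases 8 had a window, of which 6 held the ISRE core and 4 GAS letters, and Irgq and 9930111J21Rik2 held neither. In Igtp and Irgm2 the GAS letters began 11 bases before the ISRE letters. This arrangement, looked for after it was seen, occurred in 5 of the 32851 windows, those of Igtp, Irgm2, Tgtp1, Tgtp2 and Gm12185, all on chromosome 11. The Igtp and Irgm2 windows are not independent, since 184 of 270 aligned bases (68.1%) are equal. A match describes letters only and does not show that a factor binds there.

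**Figure D1:**
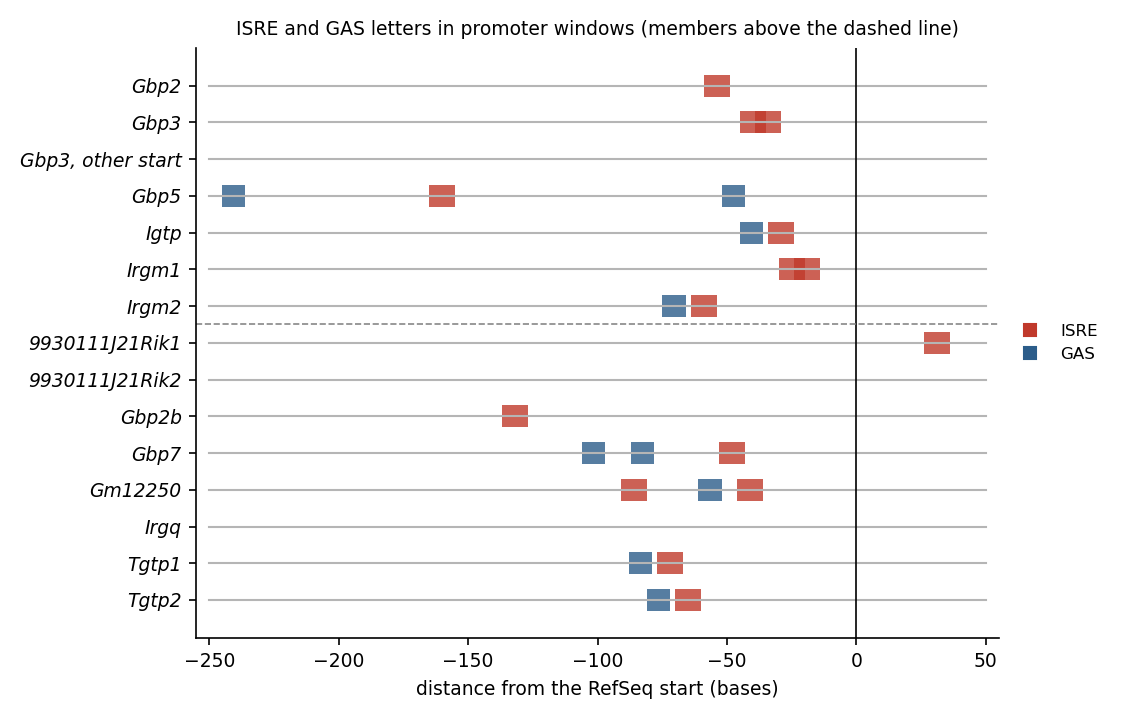
Positions of ISRE letters (red) and GAS letters (blue) in RefSeq promoter windows, in bases from the start (x axis), for the 7 windows of 6 members above the dashed line and the 8 windows of other interferon-inducible GTPases below it; a bare line is a window without a match. In Igtp, Irgm2, Tgtp1 and Tgtp2 the GAS letters begin 11 bases before the ISRE letters.

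Levels below are normalised read counts, that is reads multiplied by 1 factor per library and not divided by gene length. The MMP9_KO library held 17741432 reads in genes and the control 20678441. A count of 0 allows a level of up to 0.0713 in MMP9_KO and 0.0745 in control, taking 3 reads as the limit. Intervals in parentheses are exact 95% intervals from the reads. They cover counting error only, and molecules amplified more than once are not told apart. With 1 library per group there is no replicate error, so no test between genotypes was made and each difference describes these 2 libraries. Mmp9 itself was 3.87 in MMP9_KO and 139.4 in control, 35.99-fold lower (30.8 to 42.3). The osteoclast label held less well for MMP9_KO: the 8 osteoclast markers, Mmp9 among them, summed to 203 in MMP9_KO and 6338 in control, and all 8 were lower by at least 2-fold. The 8 macrophage markers summed to 1362 in MMP9_KO and 1008 in control, with 5 higher and 1 lower of 7 compared. Csf1r, at 563.7 in MMP9_KO and 750.6 in control, was the largest term of both sums. In cultures such as these, fewer cells of a type and less RNA per cell cannot be told apart.

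Of the 10 GTPase genes all except Iigp1 had a higher level in MMP9_KO than in control. Iigp1, with 3 reads in MMP9_KO and 0 in control, stayed at the limit of detection, so its direction is not known. Summed over the 10 genes the level was 132.5 in MMP9_KO and 11.4 in control, 11.6-fold higher (10.6 to 12.8). Irgm1 alone made up 60.1% of the sum in MMP9_KO and 76% in control. Without Irgm1 the other 9 summed to 52.9 in MMP9_KO and 2.73 in control, 19.3-fold higher (15.96 to 23.6). The 4 IRG genes summed to 114 in MMP9_KO and 10.5 in control, the 4 GBP genes to 11.4 and 0.795, and both Mx genes to 6.75 and 0.0745, in the same order of groups. IRG genes thus held most of the members' reads in both libraries.

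The regulatory IRG genes had the most reads in MMP9_KO. Irgm1 encodes a regulator of effector IRG proteins that also acts at mitochondria and lysosomes, and mice that lack it succumb to intracellular bacteria. Irgm1 (ENSMUSG00000046879, GRCm38 chromosome 11, 48861968 to 48871683, minus strand) was 79.6 in MMP9_KO and 8.67 in control, from 3352 and 349 reads. It was 9.18-fold higher (8.22 to 10.3), the narrowest interval of the 10. No 50-base stretch of its longest transcript recurs in another annotated gene, so its reads are not shared with a close copy.

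Irgm2, another regulatory IRG protein, known to restrain caspase-11 responses, was 22.8 in MMP9_KO and 1.29 in control, from 959 and 52 reads. It was 17.6-fold higher (13.3 to 23.8). Igtp, also called Irgm3 and needed in mice for resistance to Toxoplasma, was 11.9 in MMP9_KO and 0.571 in control, from 500 and 23 reads, 20.8-fold higher (13.7 to 33.1). Irgm2 and Igtp (ENSMUSG00000069874 and ENSMUSG00000078853) are neighbours on the plus strand of chromosome 11, with GRCm38 spans of 58199618 to 58222782 and 58199556 to 58207591 that overlap. Their longest transcripts share 12.3% of the 50-base stretches of Igtp, so a part of their reads may be assigned to either gene. Their promoters, printed above, share the GAS and ISRE arrangement.

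Iigp1, also called Irga6, is the effector IRG protein that loads onto the Toxoplasma vacuole. It lies on chromosome 18 and had 3 reads in MMP9_KO and 0 in control, a level of 0.0713 against a limit of 0.0745. No fold can be given, and no level above the limit was detectable at this depth. Of its 50-base stretches 3.19% recur in other genes, so close copies cover little of its transcript. Iigp1 was thus near 0 in a library in which 3 regulatory IRG genes lay between 11.9 and 79.6.

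**Figure D2:**
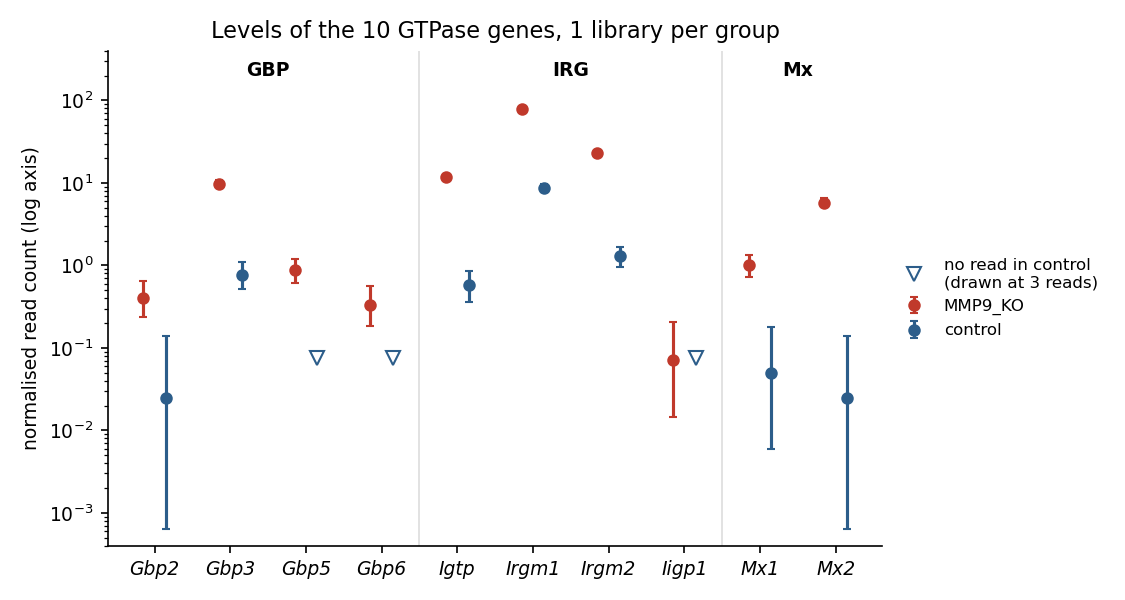
Normalised read counts (log axis) of the 10 members in MMP9_KO (red, left) and control (blue, right), 1 library each, with exact 95% counting intervals; open triangles mark genes with no control read, drawn at 3 reads. Irgm1 is highest in both libraries, at 79.6 and 8.67, and Iigp1 lies at the detection limit.

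Among the GBP genes, Gbp3 carried most of the signal. Gbp3 (ENSMUSG00000028268, GRCm38 chromosome 3, 142560026 to 142573209, plus strand) encodes a GBP that joins other GBPs on pathogen vacuoles. It was 9.76 in MMP9_KO and 0.770 in control, from 411 and 31 reads, 12.7-fold higher (8.79 to 18.9). Of its 50-base stretches 4.79% recur in other genes, among them Gbp7.

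The other 3 GBP genes were low in MMP9_KO and near 0 in control. Gbp2, whose lipid-anchored protein coats vacuoles and bacteria and promotes caspase-11 activity, was 0.404 in MMP9_KO and 0.0248 in control, from 17 reads and 1 read. The ratio of 16.25 has a counting interval from 2.55 to 679. The row named Gbp5 was 0.879 in MMP9_KO, with 37 reads, and had no control read, so it was at least 11.8-fold higher if the control is set at 3 reads, and the exact 95% interval of the fold begins lower, at 9.12. The row named Gbp6 was 0.333 in MMP9_KO, with 14 reads, and had no control read either, at least 4.46-fold higher on the same basis, with an interval that begins at 3.17.

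Both of these rows carry an identifier that a later annotation names differently. The identifier of the Gbp5 row, ENSMUSG00000040264, is Gbp2b in GENCODE M21, and that of the Gbp6 row, ENSMUSG00000079362, is Gm43302, which spans Gbp10 and Gbp6 on chromosome 5. All 50-base stretches of the longest Gm43302 transcript recur in other genes (100%). The rows are therefore reported under the symbols of the table, and which locus was counted is uncertain. The Gbp5 promoter printed above follows the symbol, and the Gbp2b window holds the ISRE core too. Gbp5 is known for promoting inflammasome assembly, and Gbp6 is a GBP of the chromosome 5 cluster.

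The Mx genes differed in level from each other. Mx2 (ENSMUSG00000023341, GRCm38 chromosome 16, 97535308 to 97560900, plus strand), whose protein in wild mice and rats acts in the cytoplasm against vesicular stomatitis virus, was 5.75 in MMP9_KO and 0.0248 in control, from 242 reads and 1 read. The ratio was 231, with a counting interval from 41.1 to 9175. Mx1 (ENSMUSG00000000386, chromosome 16, 97447035 to 97462907, minus strand), whose nuclear protein blocks influenza virus, was 0.998 in MMP9_KO and 0.0497 in control, from 42 and 2 reads. The ratio was 20.1 (5.22 to 171). C57BL/6 mice are known to carry defective alleles of both genes, and the RefSeq table lists both as transcribed pseudogenes, so these values are of transcripts only.

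Divided by the length of the longest transcript, the 8 members with an agreeing identifier could be ordered, in counts per kilobase. In MMP9_KO the order was Irgm1 at 20.8, Irgm2 at 6.46 (6.06 to 6.88), Igtp at 5.87 (5.37 to 6.41), Gbp3 at 3.64 and Mx2 at 2.32, then Mx1 at 0.295 (0.212 to 0.398), Gbp2 at 0.161 (0.0935 to 0.257) and Iigp1 at 0.0228. The counting intervals overlapped for the neighbours Irgm2 and Igtp, and Mx1 and Gbp2. In control Irgm1 was again highest at 2.26, followed by Irgm2 at 0.366, Gbp3 at 0.287 and Igtp at 0.283, whose intervals all overlapped, and the other 4 rested on at most 2 reads each. Which transcript was expressed is not known, so these values depend on the length chosen.

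Against the whole table the members stood on the higher side. A gene was compared if its mean level over both libraries was at least 1, and it counted as higher if its log2 ratio, with a pseudocount of 1 added to each level, was at least 1, and lower at -1 or less. By this rule 445 of 11126 genes (4%) were higher and 1066 (9.58%) lower in MMP9_KO. Of the 10 members 5 were compared, and all 5 were higher: Irgm2 with a log2 ratio of 3.38, Irgm1 with 3.06, Igtp with 3.03, Mx2 with 2.72 and Gbp3 with 2.60. They ranked 41, 55, 56, 82 and 92 of 11126. Gbp3, Igtp and Mx2 were under 1 in control and entered only through MMP9_KO, so for these the filter fixed the direction, and 2 members, Irgm1 and Irgm2, reached a level of 1 in control. Over all 10 members, those left out included, the median log2 ratio was 1.77. Over all compared genes it was -0.16, but only these passed the level filter, so the medians follow unlike rules. The 5 compared members had a median of 3.03.

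The pseudocount compresses low genes, and Gbp2, Gbp5, Gbp6, Mx1 and Iigp1 were below the level filter with log2 ratios of 0.45, 0.91, 0.41, 0.93 and 0.10. A rule without a pseudocount, a fold of at least 2 among genes with at least 10 reads over both libraries, called 969 of 13408 genes (7.23%) higher and 2042 (15.2%) lower. All members except Iigp1 had 10 reads, and these 9 were higher. Gbp2, Gbp5, Gbp6, Mx1 and Mx2 had at most 2 control reads and passed only through MMP9_KO, so for these the filter fixed the direction. For members with few or no control reads, genes with as few give a scale only. Both sets were picked as low in control, and most genes with no control read had fewer than 3 reads in MMP9_KO too. Small shares are thus built in for any gene with reads and do not measure rarity. Of 10293 genes with no control read, 17 (0.165%) had at least the 37 MMP9_KO reads of Gbp5, 43 (0.418%) at least the 14 of Gbp6 and 285 (2.77%) at least the 3 of Iigp1. Of 1712 genes with 1 or 2 control reads, 43 (2.51%) reached the 17 reads of Gbp2, 20 (1.17%) the 42 of Mx1 and 3 (0.175%) the 242 of Mx2.

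**Figure D3:**
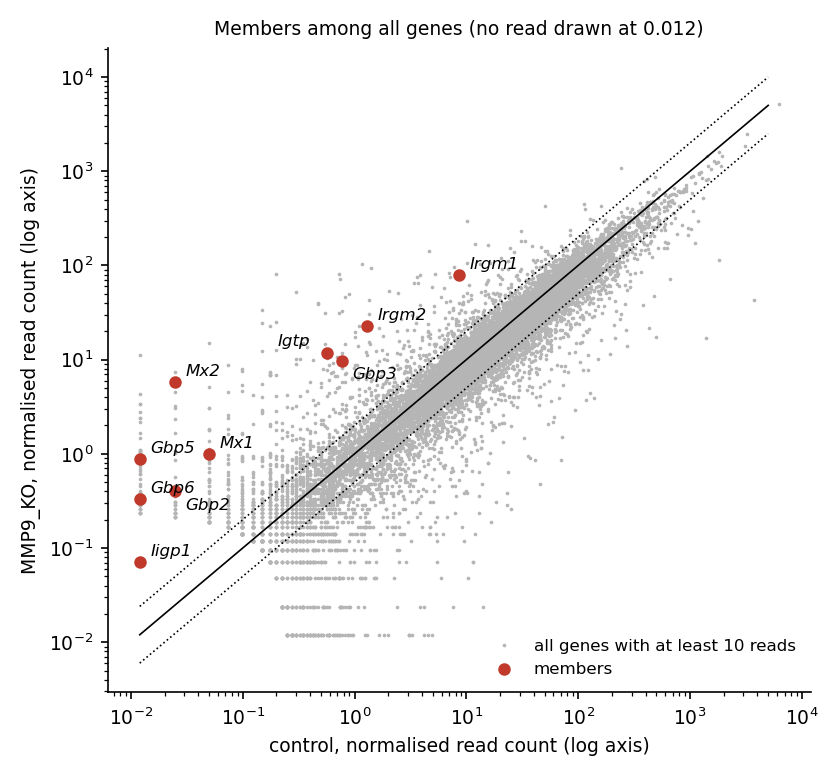
Normalised read counts in MMP9_KO (y, log axis) against control (x, log axis) for genes with at least 10 reads over both libraries (grey) and the 10 members (red); the solid line marks equal levels, the dotted lines 2-fold, and genes with no read are drawn at 0.012. The 9 members with at least 10 reads lie above the upper dotted line; Gbp5, Gbp6 and Iigp1 have no control read, so their place along x is not measured.

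The members' difference was set beside other scalings. The values as deposited gave 445 higher and 1066 lower genes, whereas scaling both libraries to the same sum, a log2 shift of 0.29, gave 674 and 684. Each of the 3 scalings tried raises MMP9_KO, so none could take any of the 5 compared members below 2-fold. Centring the ratios in bins of transcript GC content, chosen after the data were seen, left these 5 higher, with 547 genes higher and 682 lower in all.

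Other interferon-inducible GTPases were examined as a list of 15 symbols, 14 of which had a row. The list was chosen with earlier results of these data known, so its counts are not independent of them. Of the 6 compared, 5 were higher and 0 lower, beside 4% higher and 9.58% lower over all compared genes. However, 4 of the 5, all except Gbp7, were under 1 in control and passed the level filter only through MMP9_KO, which fixed their direction. Gvin1, a very large interferon-inducible GTPase, was 39.6 in MMP9_KO and 0.472 in control, 83.8-fold higher (53.5 to 140). Gbp7, whose protein supports oxidase assembly on vacuoles, was 20.9 in MMP9_KO and 2.93 in control, 7.12-fold higher (5.87 to 8.71), and Gbp9 was 2.73 in MMP9_KO and 0.149 in control. The rows 9930111J21Rik1 and 9930111J21Rik2 were 7.29 and 10.4 in MMP9_KO and 0.621 and 0.820 in control. Irgq, an IRG relative that is not known to be inducible, was 10.6 in MMP9_KO and 14.9 in control. The effector genes Tgtp1 and Tgtp2, near-identical copies of each other, had 1 read and 2 reads in MMP9_KO and 0 in control. Like Iigp1 they were at or under the limit, and how reads that fit both copies were counted is not known.

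The promoter arrangement was found in genes of very different level. Tgtp1 and Tgtp2 hold the same GAS and ISRE arrangement as Igtp and Irgm2 and had almost no reads. Gm12185, the fifth gene with this arrangement, was 1.97 in MMP9_KO and 0.174 in control, 11.3-fold higher (5.26 to 29.1).

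GTPases of the dynamin, mitofusin, atlastin and EHD families, which shape membranes in many kinds of cell, served as relatives outside the interferon response. Of 11 compared, 0 were higher and 1 was lower, Dnm1, at 0.404 in MMP9_KO and 3.70 in control. These counts are near the shares over all compared genes, 4% higher and 9.58% lower. The median log2 ratio of the 11 was -0.30. Dnm2, the ubiquitous dynamin of endocytosis, was 56.9 in MMP9_KO and 70.4 in control.

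**Figure D4:**
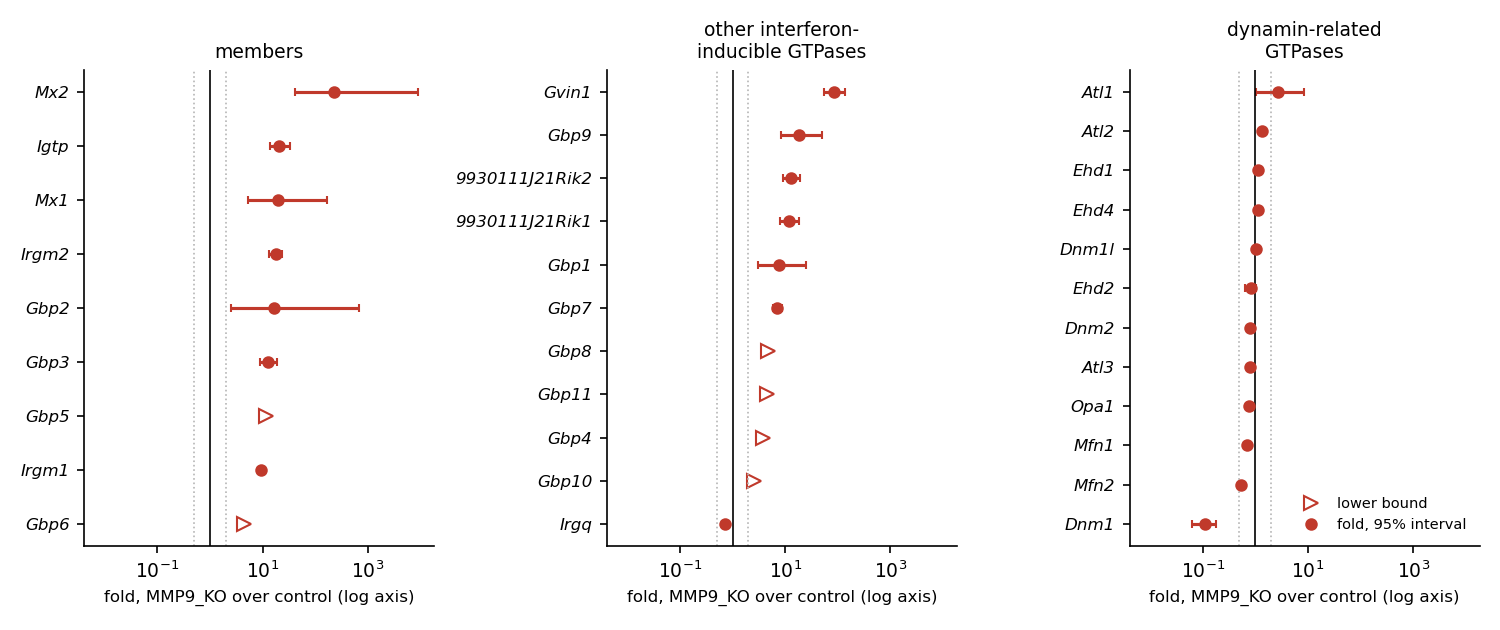
Fold of MMP9_KO over control (log axis) with exact 95% counting intervals for the members, for other interferon-inducible GTPases and for dynamin-related GTPases; open triangles are lower bounds against 3 reads, and genes at or under the limit in both libraries are left out. The 9 members shown lie above 2, and 10 of the 12 dynamin-related genes lie within 2-fold, Atl1 being above at 2.71 and Dnm1 below.

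The upstream pathway was followed from ligand to transcription factor. Transcripts of interferons themselves were not found: 8 of 10 interferon genes had no read in either library, Ifng had 0 in MMP9_KO and 2 in control, and Ifnk had 0 in MMP9_KO and 1 in control. Each is below the limit, at one time point. Of the 8 receptor chains and kinases 0 were higher and 1 was lower, beside 4% higher and 9.58% lower over all compared genes. The lower one was Il10rb, a chain of the type III interferon receptor, at 14.2 in MMP9_KO and 29.5 in control. It was 2.08-fold lower as deposited (1.88 to 2.29), and it was within 2-fold under each scaling. Ifngr1, the ligand-binding chain for interferon gamma, was 15.6 in MMP9_KO and 27.1 in control.

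Among 10 compared transcription factors and coactivators 4 were higher and 0 lower, beside 4% higher and 9.58% lower over all compared genes. Irf7, which amplifies type I interferon responses, was 43.3 in MMP9_KO and 1.34 in control, 32.2-fold higher (24.6 to 43.1). Irf9, which binds DNA at ISRE elements, was 33.7 in MMP9_KO and 7.58 in control, and Stat2, its partner, was 24.2 in MMP9_KO and 8.10 in control. Irf8, a myeloid factor that restrains osteoclast formation, was 9.45 in MMP9_KO and 0.745 in control, so it too entered only through MMP9_KO. Irf1, the factor that interferon gamma uses to induce GBP genes, was 6.65 in MMP9_KO and 6.58 in control, a ratio of 1.01 (0.851 to 1.20). Ciita, a coactivator that interferon gamma induces, had 0 reads in MMP9_KO and 1 in control. Of 5 compared feedback genes Usp18, at 103 in MMP9_KO and 1.17 in control, and Socs3, at 14.5 and 1.37, were higher, and 0 were lower. The same shares over all compared genes, 4% and 9.58%, stand beside this count.

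Genes that work with the GTPases were counted beside the 4% of all compared genes that were higher and the 9.58% that were lower. Of 10 genes for the ATG8 conjugation machinery, which places GBP and IRG proteins on vacuoles, 0 were higher and 2 lower, Gabarapl2 at 11.3 in MMP9_KO and 29.3 in control and Map1lc3a at 0.594 and 2.24. Under each scaling 1 of these was lower by 2-fold, Gabarapl2. Of 12 compared inflammasome and oxidase genes 2 were higher and 0 lower by the pseudocount rule. Cybb, the catalytic oxidase subunit, was 53.9 in MMP9_KO and 2.01 in control, and Ncf1, its cytosolic partner, was 72.3 and 28.7. Casp4, which encodes caspase-11, was 5.75 in MMP9_KO and 9.96 in control. Without a pseudocount, 3 of the 13 inflammasome and oxidase genes with at least 10 reads were higher and 1 was lower. Over all such genes the shares were 7.23% and 15.2%. The lower one was Gsdmd, at 17.7 in MMP9_KO and 35.9 in control, 2.02-fold lower (1.85 to 2.21).

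**Figure D5:**
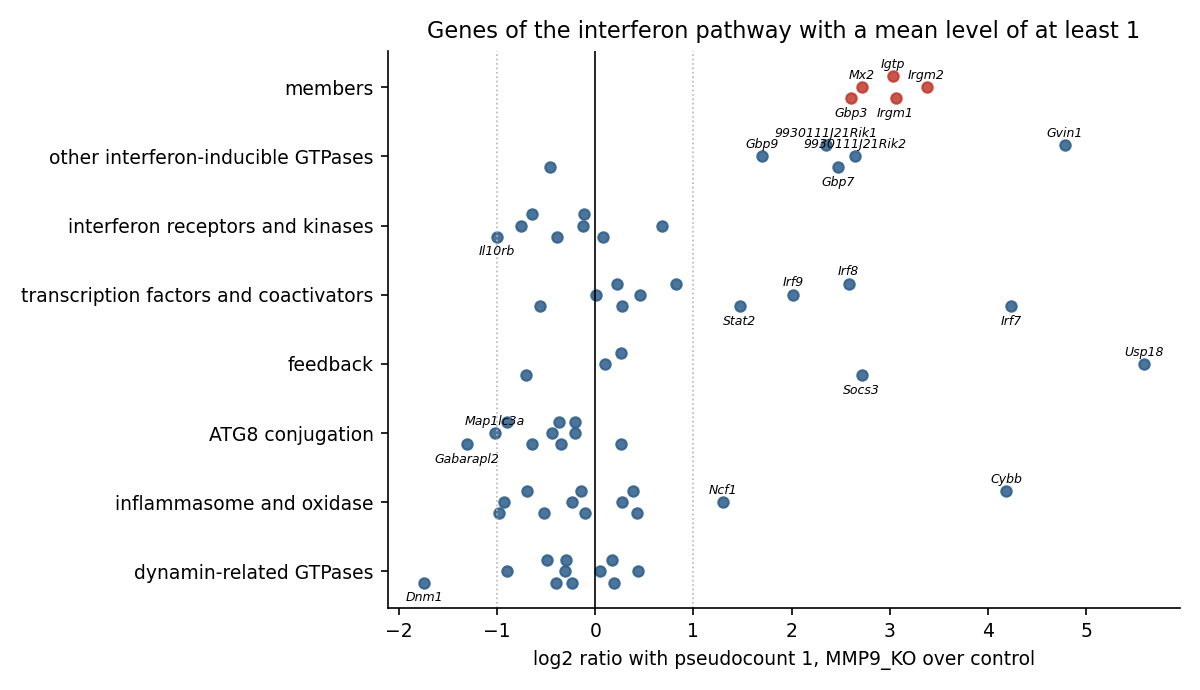
Log2 ratio of MMP9_KO over control, with a pseudocount of 1 (x axis), of genes with a mean level of at least 1 in the members (red) and in 7 lists (blue). Dotted lines mark 2-fold, and genes past them are named. The 5 compared members lie between 2.60 and 3.38, and no receptor or kinase lies beyond 1 on the right.

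Genes around the members were compared to see whether whole regions differed, a comparison added after the data were seen. Within 500 kb of 5 member loci, 28 protein-coding genes outside the GTPase lists were compared, of which 25 were within 2-fold, 2 were higher and 1 was lower, beside 4% higher and 9.58% lower over all compared genes. Relatives of the members were left out by symbol only, so GTPase genes under other symbols may remain among the 28. The 2 higher ones, Gm12185 and Gm5431, lie near Irgm1, as does the lower one, Mgat1. Gm12185 holds the promoter arrangement of Tgtp1 and Tgtp2, and whether it and Gm5431 are relatives of the members was not examined. Both higher ones were under 1 in control, at 0.174 and 0.298, and entered only through MMP9_KO. The 9 genes near Irgm1 had a median log2 ratio of 0.06, and the 3 near Gbp6 one of -0.11. The 4 near Gbp2, Gbp3 and Gbp5 had one of -0.06, the 8 near Igtp and Irgm2 one of -0.20, and the 4 near Mx1 and Mx2 one of -0.27. Genes around Iigp1 were not examined.

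Markers of other cell types were set beside these values. All 11 T and NK cell markers had no read in MMP9_KO, and 1 of them, Cd3d, had 2 in control. Of 5 neutrophil markers 4 had no read in either library, and S100a8 had 13 reads in MMP9_KO and 0 in control. B cell markers summed to 0.261 in MMP9_KO and 0.0497 in control, with Ms4a1 and Pax5 at 0 and Cd79b at 9 reads in MMP9_KO and 0 in control. Dendritic cell markers summed to 2.33 in MMP9_KO and 16.2 in control, with Flt3 and Cd209a at 0. The 2 compared were both lower, beside 9.58% of all compared genes. Itgax was 0.665 in MMP9_KO and 11.2 in control, and Zbtb46 was 1.24 and 4.40. Stromal and endothelial markers summed to 0.309 in MMP9_KO and 0.422 in control. Of the 7 compared macrophage markers 5 were higher and 1 lower. Emr1 was 50.5 in MMP9_KO and 2.46 in control, 20.5-fold higher, and Cd14 166.4 and 15.5, 10.8-fold higher. Lyz2 was 423 in MMP9_KO and 50.8 in control, 8.34-fold higher, and Itgam 86.3 and 38.7, 2.23-fold higher. Fcgr1 was 11.1 in MMP9_KO with no control read, so it entered only through MMP9_KO. The median log2 ratio was 3.03 in the 7 and in the 5 compared members, but the level filter cut both sets and each median is the value of 1 gene. Without the filter it was 2.09 over all 8 macrophage markers and 1.77 over all 10 members. Cd68 was lower at 60.9 in MMP9_KO and 150.2 in control. Csf1r was within 2-fold at 563.7 in MMP9_KO and 750.6 in control, and Mertk had 1 read in MMP9_KO and 0 in control. The part of these markers in the result was not tested.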

How the data were processed

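Poly(A) RNA of 1 MMP9_KO and 1 control library was analysed. TopHat and the build mm9 are named in the submitters' processing notes. Versions, counting program, annotation and strand use: not given in the sources used here. What the authors deposited are log2 values for 26037 genes, titled as normalised RPKM. On the linear scale, values were whole multiples of a library-wide step (0.0238 in MMP9_KO and 0.0248 in control; 99.99% of values within 0.05 of a whole read in each), with genes without a read at 0.9 of the step, which was set to 0. They were thus treated as read counts times 1 factor, not divided by length. Folds have exact conditional binomial intervals. The scripts, checked on simulated data, used Python 3.11.15, SciPy 1.17.1 and pandas 2.3.3. Positions and transcripts are from GENCODE M21 on GRCm38, promoters from RefSeq. Older symbols stood for Gbp2b (Gbp1), Ifnl2 (Il28a) and Ifnl3 (Il28b), Gm12250 levels were not analysed here, and 1 gene of the planned transcription factor list is not reported here. All members, the genes past 2-fold in each pathway list and a few others chosen after their values were seen are named. Osteoclast markers are mostly given as sums. The members and lists were chosen with earlier results of these data known. Protein features had been planned and were not analysed here.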

Additional observations from a re-analysis of the deposited data

How the results depend on the processing

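No paired analysis was possible because each genotype had a single library, so leaving out a replicate was not possible either. The count of members higher by at least 2-fold was again 5 under pseudocounts of 0.1 and 5, without a filter, under 3 scalings and after centring by GC content (the last added after the data were seen). It was 4 with a mean level of at least 5 and 9 without a pseudocount among genes with at least 10 reads, and 0 members were lower throughout. Among the 9, Gbp2, Gbp5, Gbp6, Mx1 and Mx2 passed the read filter only through MMP9_KO. The median log2 ratio of the compared members, 3.03, was 4.04 with a pseudocount of 0.1, 1.60 with one of 5, 1.77 without a filter and 3.30 with equal sums. A pseudocount shrinks low genes by construction, and a filter changes which members enter. Of all genes, 255 were higher and 603 lower with a pseudocount of 5, 674 and 684 with equal sums, and 682 were lower after GC centring. Of the listed pathway genes 4 were lower; 1 was with a pseudocount of 5, and 2 were with a mean level of at least 5, with each of the 3 scalings and after GC centring. Of 60 alternative log2 ratios of single members 42 left the counting interval. None changed sign. For the pseudocounts and scalings this says nothing of stability, since a pseudocount cannot change a sign and the 3 scalings all raise MMP9_KO. Only the GC centring could have changed a sign, and its lowest ratio was 0.02, for Iigp1. Depth limits the 6 members with at most 2 control reads: Gbp2, Gbp5, Gbp6, Iigp1, Mx1 and Mx2.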
